A study of Oryctolagus cuniculus with 14 samples.

Results

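A set of 341 genes had lower median levels in rabbit corneas scored as clinically impaired after sulfur mustard vapor than in both non-impaired and naive corneas. Members were chosen from the measured values themselves. Counts were scaled to a library total of 1000000 counts (CPM), and the median was taken over the libraries of each group. A member had a median of at least 2 CPM in naive and in non-impaired corneas, an impaired median of at most 0.6 of each of these, and a non-impaired median above 0.5 of the naive median. The 341 members are 1.44% of the 23669 rabbit gene IDs and 4.12% of the 8286 IDs with a naive and non-impaired median of at least 2 CPM. These 8286 genes serve below as the reference set. Membership leaned on single libraries: with impaired 2 left out the rule gave 202 genes, of which 193 were among the 341, and with impaired 4 left out it gave 209, of which 194 were.

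RNA-seq was run on whole corneas of New Zealand White rabbits, 14 libraries in all. The impaired group (n = 5) and the non-impaired group (n = 5) came from eyes exposed to the vapor and differed in clinical status, and the naive group (n = 4) was not labelled as exposed. Corneas of all groups are labelled 4 weeks. The age of the animals, the vapor dose and the signs used for scoring are not known here. Whether each cornea came from a different animal is also not stated, and calls by a test are therefore measured against a spread between libraries that may be technical in part. Total counts lay between 12002876 in impaired 1 and 17488019 in naive 1.

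The cornea is a clear tissue of stratified epithelium, a collagen stroma kept by keratocytes, and a single-layered endothelium that pumps fluid out. Sulfur mustard alkylates DNA and proteins, and corneas that seem to recover can later develop a delayed keratopathy with epithelial defects, swelling and ingrowth of vessels. The series is about this late pathology, and its non-impaired corneas were exposed as well. Clinical status is an outcome, and the dose is not known here. Impairment and degree of exposure therefore cannot be told apart. The deposited files do not pair the gene IDs with names, so neither the function of the members nor the markers of corneal cell types could be read, and members are described by level, direction and library. Only 4 are given by ID.

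The members ranged from weakly to strongly expressed. Naive medians ran from 2.099 to 4600 CPM, with a median over members of 13.8 CPM, against 35.6 CPM over the reference set. Of the members, 70 had a naive median under 5 CPM, 73 lay between 5 and 10 CPM, 127 between 10 and 50 CPM, 34 between 50 and 100 CPM, 28 between 100 and 500 CPM and 9 above 500 CPM. Members made up 10.1% of the reference genes under 5 CPM, 1.77% of those between 100 and 500 CPM and 3.67% of those above 500 CPM. The rule thus took a larger share of weakly expressed genes, whose medians also carry the larger counting error. Over all members, weak and strong together, the sum over the 5 impaired libraries had a median of 563 counts per member and a minimum of 44. These sums were not split by level, and the rule read medians over libraries rather than sums. A member with the minimum sum had 5, 4, 16, 5 and 14 counts in impaired 1 to 5, so its impaired median rested on few counts.

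Over the members, the impaired median was 0.466 of the naive median and 0.503 of the non-impaired median (medians of the ratios). The same ratios over the reference set were 0.941 and 0.978. The quartiles of the members' ratio to naive were 0.383 and 0.527, so most decreases were moderate. An impaired median at or under 0.5 of both other groups was found for 116 members, at or under 0.4 for 37 and at or under 0.3 for 8. Many members lay close to the limit of the rule. The larger of the 2 ratios was between 0.55 and 0.6 for 129 members, and 145 genes just outside had it between 0.6 and 0.65. The last gene inside had an impaired median of 21.7 CPM against 36.3 CPM in non-impaired corneas, a ratio of 0.5997, and the first gene outside had 14.2 against 23.7 CPM, a ratio of 0.6004. These values follow from the rule and are given as a description. In whole tissue, fewer cells of a type and less RNA per cell cannot be told apart.

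**Figure D1:**
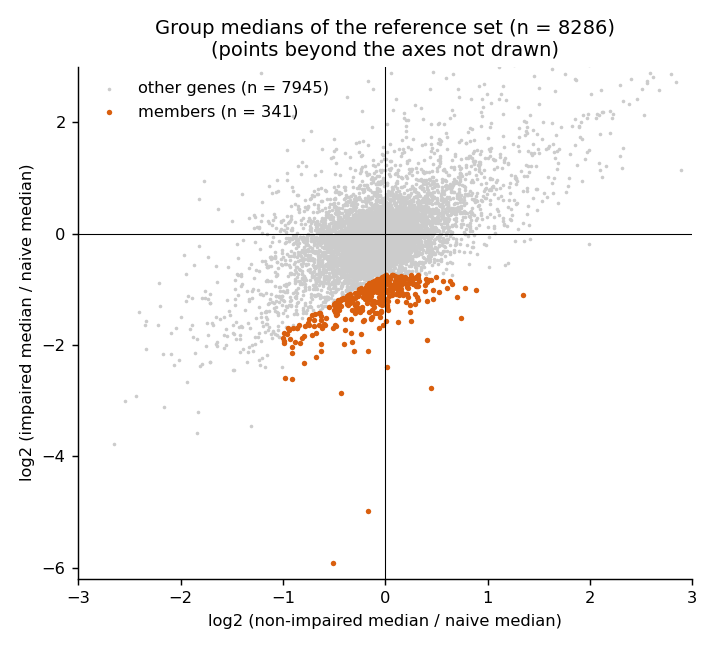
Each point is a gene of the reference set, placed by the log2 ratio of the non-impaired to the naive median (x axis) and of the impaired to the naive median (y axis); members are orange and other genes grey. Members lie below zero on the y axis by construction and spread to both sides of zero on the x axis, with a median non-impaired to naive ratio of 0.941.

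Relative to naive, the members of non-impaired corneas are described but not compared, because the rule used both medians and cut their ratio off from below. The ratio of the non-impaired to the naive median had a median of 0.941 over members, with quartiles of 0.794 and 1.08, and of 0.944 over the reference set. A ratio between 0.8 and 1.2 was found for 213 members, 62.5%, against 59.6% of the reference set. Lower ratios were found for 89 members, 26.1% against 23.2%, and higher ratios for 39 members, 11.4% against 17.2%. At the lower end, 25 members had a non-impaired median at or under 0.6 of naive, so that for these the decrease was shared in part by both exposed groups.

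The libraries of a group were far from alike. Members together held 2.86%, 2.61%, 2.21% and 1.81% of all counts in naive 1 to 4. They held 2.59%, 2.003%, 1.85%, 1.60% and 1.83% in non-impaired 1 to 5. In impaired 1 to 5 they held 1.91%, 0.882%, 1.88%, 0.858% and 0.900%. Impaired 2, 4 and 5 thus lay well below every other library, whereas impaired 1 and impaired 3 lay within the range of the non-impaired corneas and above naive 4. Members were chosen by low impaired medians in these same libraries, which favors low impaired shares. The group means were 2.37% ± 0.46 in naive (SD, n = 4), 1.97% ± 0.37 in non-impaired (SD, n = 5) and 1.29% ± 0.56 in impaired corneas (SD, n = 5).

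This share is dominated by a few members, the 2 most abundant of which held 30.8% of it in naive corneas, so each member was also set against its own naive median. The median of that ratio over the 341 members was 1.08, 1.11, 0.963 and 0.718 in naive 1 to 4. In non-impaired 1 to 5 it was 0.985, 0.970, 0.895, 0.866 and 0.939. In impaired 1 to 5 it was 0.786, 0.385, 0.563, 0.421 and 0.455. Every impaired library was below every non-impaired library, but impaired 1 stood above naive 4. The choice of members by these same libraries favors low impaired ratios. Over the reference set the same medians lay between 0.884 and 1.01 in all 14 libraries, with 0.982 in naive 4 and 1.01 in impaired 1. The shift of these libraries among the members was therefore not matched by one over the reference set as a whole.

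**Figure D2:**
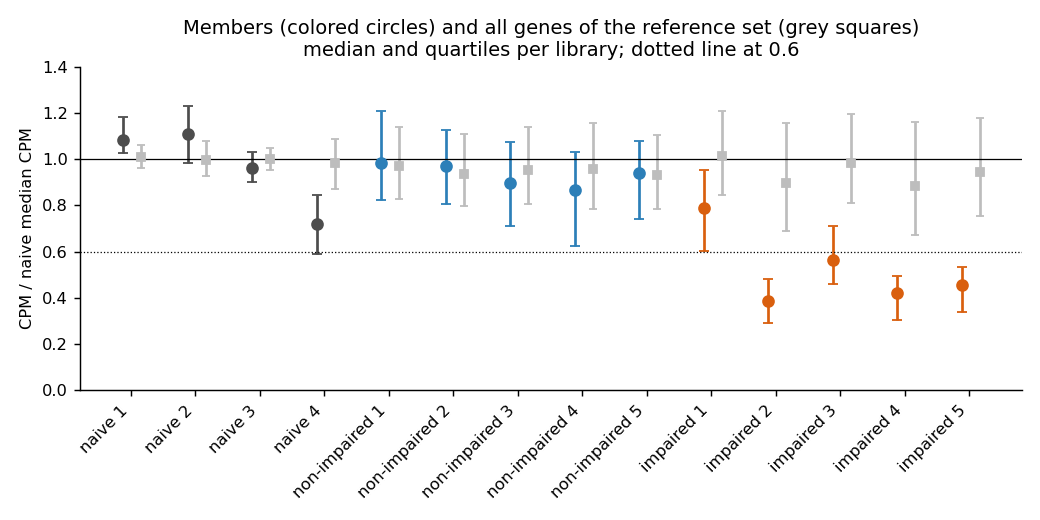
For each library (x axis), circles give the median over the 341 members of the CPM divided by the naive median CPM (y axis), and grey squares give the same for the 8286 genes of the reference set; bars span the quartiles. Impaired 2, 4 and 5 lie lowest (0.385 to 0.455), impaired 1 lies at 0.786, and naive 4, at 0.718, lies below the other naive libraries.

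Impaired 1 held the highest value of its group in 242 members, 71.0%, against 41.6% of the reference set. It was at or above the naive median in 71 members, where impaired 2, 4 and 5 were so in 1, 1 and 3 members and impaired 3 in 37. The lowest value of the impaired group was found in impaired 2 for 154 members, in impaired 4 for 105, in impaired 5 for 61, in impaired 1 for 11 and in impaired 3 for 10. Impaired 1 was also the most shallowly sequenced library, although non-impaired 3 and non-impaired 4, at 12028496 and 12026170 counts, were hardly deeper. Naive 4 held the lowest naive value in 265 members, 77.7%, against 40.5% of the reference set. In 207 members impaired 1 exceeded naive 4. The part of depth in these positions was not tested.

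**Figure D3:**
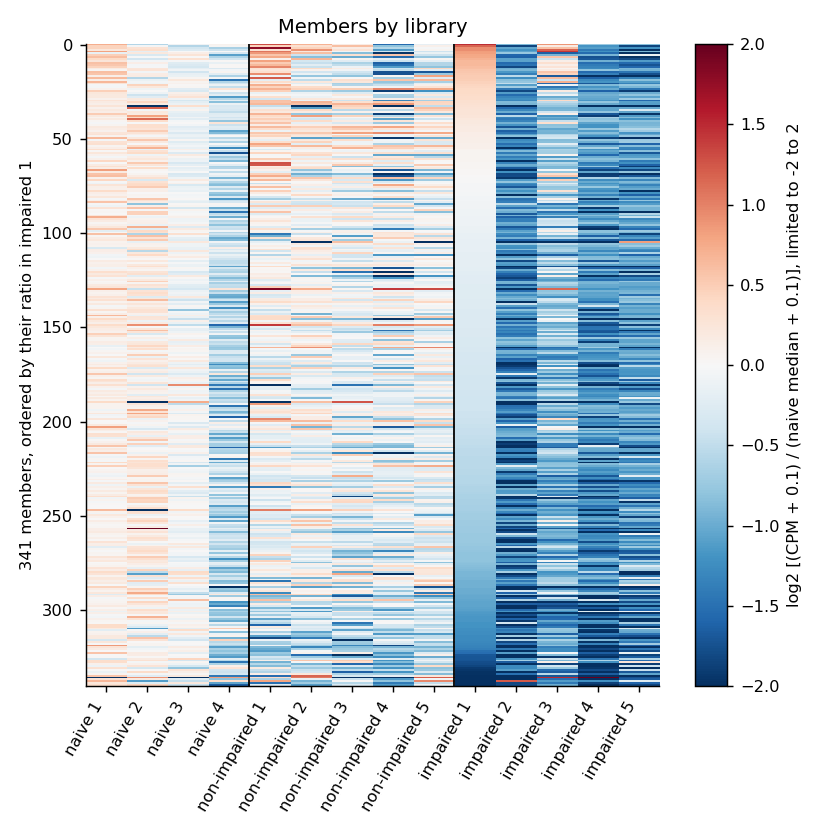
Rows are the 341 members, ordered from top to bottom by falling ratio in impaired 1, and columns are the 14 libraries; color gives log2 of (CPM + 0.1) over (naive median + 0.1), blue for lower and red for higher. Impaired 2, 4 and 5 are blue over nearly all rows, impaired 1 is at or above the naive median in the 71 topmost members, and naive 4 is mostly pale blue.

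The spread between libraries was larger among the members than in the reference set in all 3 groups. The median coefficient of variation was 24.6% in naive corneas, 19.5% in non-impaired corneas and 40.1% in impaired corneas, against 12.4%, 11.4% and 17.0% over the reference set. Without impaired 1 the impaired value was 28.3%, against 13.8% over the reference set, and without naive 4 the naive value was 14.9%, against 8.92%. A difference of at least 5-fold between libraries of the same group, with the lower value set to no less than 3 counts, was found for 7 members among naive corneas, 21 among non-impaired corneas and 40 among impaired corneas. These are 2.05%, 6.16% and 11.7% of the members, against 1.13%, 1.74% and 2.98% of the reference set. The members were also weaker, with a median naive level of 13.8 CPM against 35.6 CPM. The parts of level and of the choice by group medians in this spread were not tested.

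In 56 members every impaired library lay below every naive and every non-impaired library, where 2.97% of the reference set did so. Below every naive library lay 89 members, with 12.5% in the reference set, and below every non-impaired library 125, with 8.30%. Because the rule used these contrasts, nothing is read from the excess. The counts turned on the libraries that stand apart, in the reference set as well. Without impaired 1, 159 members lay below both groups, with 9.72% of the reference set. Without naive 4 there were 110, with 5.60%, and without both libraries 206, with 13.5%.

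All 341 members passed the default expression filter of edgeR. Of these, 210 were called lower in impaired than in naive corneas (quasi-likelihood test in edgeR, p below 0.05 after Benjamini-Hochberg adjustment), where 15.8% of all 10048 genes tested were called lower. Against non-impaired corneas 236 were called lower, where 14.4% of all genes were, and 189 members were called lower in both, where 7.56% of all genes were. None was called higher in either contrast, where 19.8% of all genes were called higher against naive and 18.4% against non-impaired corneas. These calls rest on the contrasts that chose the members, which favors passing, so nothing is read from the number called. Even so, 131 of 341 did not pass against naive and 105 did not pass against non-impaired corneas. The rule reads medians and the fit reads all libraries, and the fitted fold change was above 0 for 4 members against naive and for 4 against non-impaired corneas. The median fitted log2 fold change of the members was -0.81 in both contrasts, against 0.01 and 0.00 over all genes tested.

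Between non-impaired and naive corneas 5 members were called lower, where 9.99% of all genes tested were, and 3 were called higher, where 12.8% were. The rule had removed genes with large decreases in this contrast. For the 5 members called lower in non-impaired corneas, the decrease was not limited to impaired corneas. The count of 8, where 22.8% of all genes were called in either direction, depended on the libraries. It was 15 without impaired 1 (26.4% of all genes), 5 without non-impaired 2 (18.5%) or non-impaired 3 (19.4%), 4 without non-impaired 4 (18.4%) or naive 3 (14.9%), and 3 without naive 1 (17.6%). Without both impaired 1 and naive 4 it was 24, of which 18 were lower and 6 higher, where 22.1% of all genes were called.

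To describe libraries on genes they had not helped to choose, the rule was applied with each library left out in turn, and the left-out library was then set against the naive median of the remaining libraries. For impaired 2, the other 13 libraries chose 202 genes, and the left-out library was at or under 0.6 of naive in 176 of them, 87.1%, against 16.8% of the reference set. For impaired 4 it was so in 185 of 209 genes, 88.5% against 18.2%. For impaired 5 it was so in 190 of 266 genes, 71.4% against 11.9%. The naive median that serves as the reference here also helped to choose these genes, so the reference set is not the level that a library without a decrease would show.

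The other impaired corneas did so less often, among longer lists of genes chosen without them. The lists differ between left-out libraries, so these shares are not directly comparable. Impaired 3 was at or under 0.6 of naive in 194 of 403 genes, 48.1% against 7.18%, with a median ratio of 0.609. Impaired 1 was so in 78 of 415 genes, 18.8% against 6.37%, with a median ratio of 0.805. The median ratios of impaired 2, 4 and 5 were 0.384, 0.425 and 0.491. In all 5 libraries the chosen genes lay lower than the reference set, whose medians were 1.01, 0.898, 0.981, 0.884 and 0.946 in impaired 1 to 5. Against the non-impaired median, the left-out impaired libraries 1 to 5 had median ratios of 0.841, 0.394, 0.655, 0.440 and 0.512.

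Left-out naive and non-impaired libraries were treated in the same way. The naive median again helped to choose the genes, and each left-out library has its own list. These values are therefore not a baseline without impairment. Naive 1, 2 and 3 were at or under 0.6 of the naive median in 0.332%, 3.68% and 3.23% of the genes chosen without them. The reference set had 0.848%, 3.15% and 1.97%. Naive 4 was so in 123 of 353 genes, 34.8%, against 5.28% of the reference set, and its median ratio was 0.665. That median was below the 0.805 of impaired 1. The left-out non-impaired libraries 1 to 5 were at or under 0.6 of naive in 10.5%, 14.2%, 19.9%, 28.2% and 15.1% of their genes, against 6.29% to 9.66% of the reference set.

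**Figure D4:**
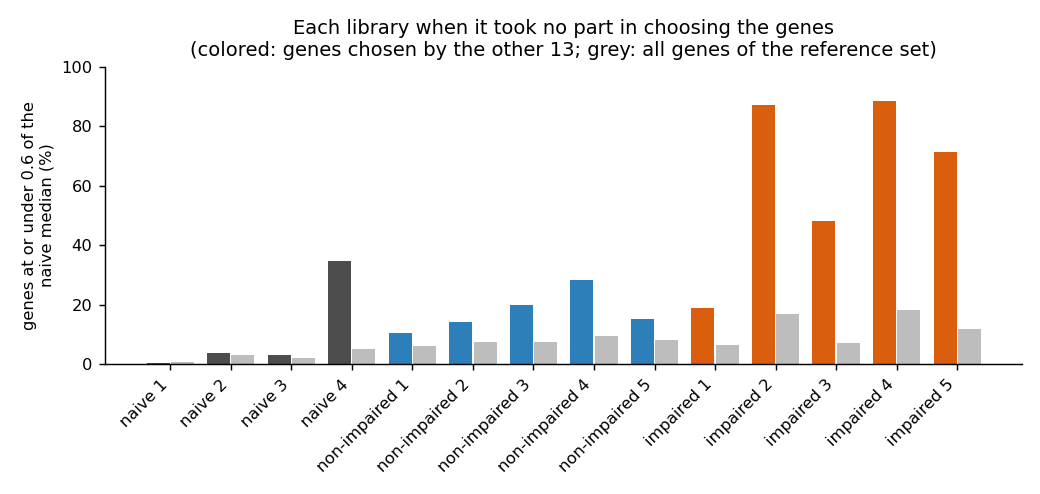
Bars give, for each library, the percentage of genes at or under 0.6 of the naive median CPM (y axis), for genes chosen by the rule from the other 13 libraries (colored) and for the reference set (grey). Impaired 2, 4 and 5 reach 71.4% to 88.5%, impaired 3 48.1%, impaired 1 18.8% and naive 4 34.8%.

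Among the 198 members of at least 10 CPM in naive corneas, 36 had no overlap between impaired libraries and either other group, where 3.15% of the reference genes at that level had none, and the 2 with the deepest decrease are given by ID. ENSOCUG00000010827 had 390, 418, 328 and 209 CPM in naive 1 to 4. It had 300, 325, 262, 256 and 272 CPM in non-impaired 1 to 5. Impaired 1 to 5 had 165, 73.9, 90.8, 74.3 and 91.5 CPM. The highest impaired cornea, impaired 1, lay below the lowest naive cornea, naive 4, and all 5 non-impaired corneas lay within the naive range. The means were 336 ± 92.8 CPM in naive (SD, n = 4), 283 ± 29.0 CPM in non-impaired (SD, n = 5) and 99.0 ± 37.6 CPM in impaired corneas (SD, n = 5), and the impaired median was 0.253 of naive and 0.334 of non-impaired.

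ENSOCUG00000008583 had a still lower ratio, with an impaired median 0.231 of naive and 0.259 of non-impaired, but a wider spread. It had 80.5, 46.8, 62.2 and 20.2 CPM in naive 1 to 4. In non-impaired 1 to 5 it had 18.7, 122, 42.5, 48.5 and 63.9 CPM. The impaired corneas 1 to 5 had 13.4, 7.80, 16.5, 2.76 and 12.6 CPM. The groups did not overlap, but the gap was narrow: impaired 3 at 16.5 CPM lay just below non-impaired 1 at 18.7 CPM and naive 4 at 20.2 CPM. The means were 52.4 ± 25.5 CPM in naive (SD, n = 4), 59.2 ± 38.8 CPM in non-impaired (SD, n = 5) and 10.6 ± 5.38 CPM in impaired corneas (SD, n = 5).

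In 7 members every non-impaired library lay above every naive library, where 9.87% of the reference set did so, and in 4 every non-impaired library lay below, where 16% did. The rule limited the second count, and the spread within groups was larger among the members than in the reference set. Nothing is therefore read from either count. Of the 7, 4 had at least 10 CPM in naive corneas, and the 2 with the highest ratio are given by ID. ENSOCUG00000007833 had 22.7, 23.7, 19.3 and 19.3 CPM in naive 1 to 4. It had 33.1, 31.6, 33.9, 37.8 and 28.1 CPM in non-impaired 1 to 5. Among impaired corneas 1 to 5 it had 26.0, 11.2, 13.2, 10.4 and 9.73 CPM. Impaired 1 lay above all naive corneas, and the other 4 impaired corneas lay below them all. The non-impaired median was 1.57 times the naive median, and the impaired median was 0.531 of naive and 0.338 of non-impaired. It was not among the members called lower against naive.

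ENSOCUG00000005457 showed a similar order. It had 12.4, 13.1, 12.2 and 8.51 CPM in naive 1 to 4. In non-impaired 1 to 5 it had 19.1, 19.2, 15.7, 18.6 and 16.04 CPM. In impaired 1 to 5 it had 9.08, 3.97, 6.46, 5.52 and 6.25 CPM. Impaired 1 lay above naive 4, and the other 4 impaired corneas lay below all naive corneas. The means were 11.5 ± 2.05 CPM in naive (SD, n = 4), 17.7 ± 1.70 CPM in non-impaired (SD, n = 5) and 6.25 ± 1.86 CPM in impaired corneas (SD, n = 5).

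**Figure D5:**
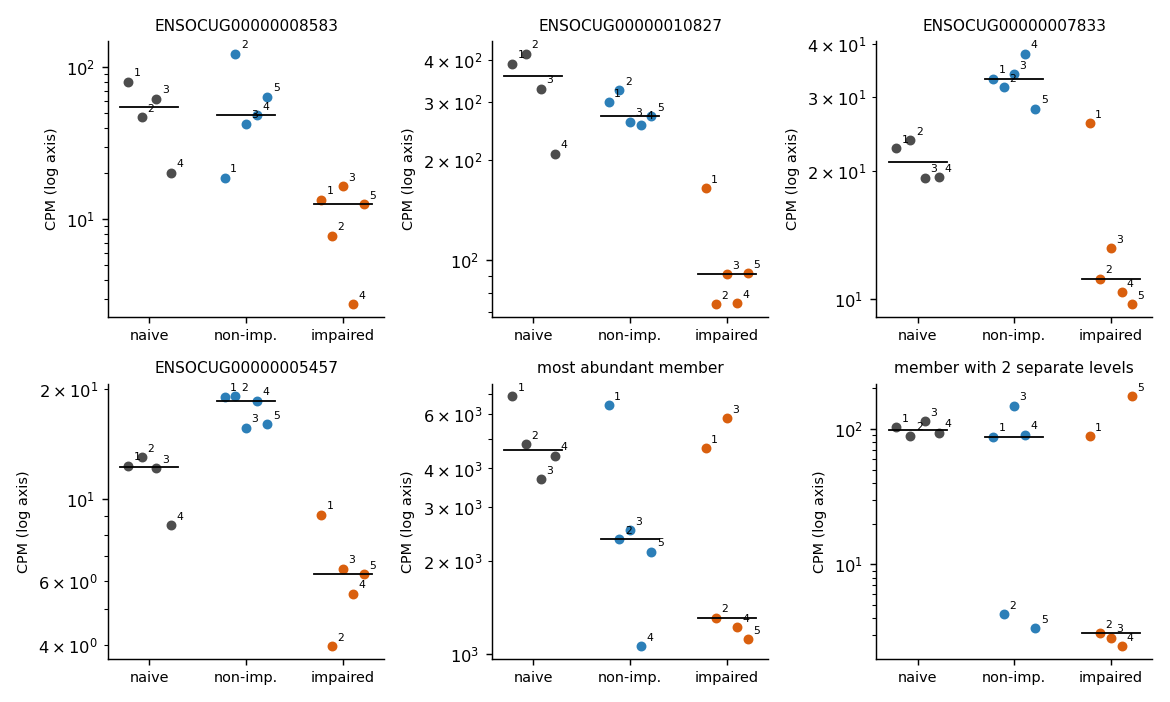
CPM on a log axis (y axis) in naive, non-impaired and impaired libraries (x axis) for the 4 members given by ID, the most abundant member and a member with separate high and low levels; points carry the library number and lines mark group medians. The impaired group lies below both others in the first pair, while in the last pair impaired libraries fall at high and low levels.

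The most abundant member did not follow the clinical groups. It had 6865, 4800, 3688 and 4399 CPM in naive 1 to 4. It had 6416, 2360, 2525, 1060 and 2146 CPM in non-impaired 1 to 5. In impaired 1 to 5 it had 4662, 1312, 5823, 1220 and 1119 CPM. Impaired 1 and impaired 3 lay in the naive range, non-impaired 4 lay below all impaired corneas, and the gene met the rule because 3 of 5 impaired corneas were low. The second most abundant member, at a naive median of 2170 CPM, had 2183, 629, 3204, 588 and 667 CPM in impaired 1 to 5, and its level was 0.436 to 0.670 of that of the first in all 14 libraries.

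Other members shared this pattern. Pearson's r of log2 (CPM + 1) with the most abundant member over the 14 libraries was at least 0.9 for 20 members, the second most abundant among them at 0.98. It was so for 90 genes of the reference set, 1.09%, the 20 members included, and its median was 0.479 over members and 0.184 over the reference set. These points share libraries and their scaling, and r is given as a description. In these 21 members together, the median ratio to naive was 1.02 in impaired 1 and 1.09 in impaired 3, but 0.308, 0.302 and 0.269 in impaired 2, 4 and 5. It was 1.31 in non-impaired 1 and 0.298 in non-impaired 4. These medians restate the choice of the 21 members by likeness. In the remaining 320 members the median ratio was 0.774 in impaired 1, 0.547 in impaired 3 and 0.893 in non-impaired 4.

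The third most abundant member kept to the clinical groups. It had 1277, 1402, 1208 and 957 CPM in naive 1 to 4. It had 986, 1163, 1115, 1172 and 1033 CPM in non-impaired 1 to 5. Impaired 1 to 5 had 744, 668, 672, 511 and 471 CPM. All impaired corneas lay below all others, and the group means were 1211 ± 187, 1094 ± 81.4 and 613 ± 116 CPM (SD, n = 4, 5 and 5).

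Only 12 members were at or under 0.6 of both other groups' medians in all 5 impaired libraries, while 95 were so in 4 libraries and 234 in 3. The rule on medians fixes at least 3 such libraries for every member. In 10 of the 12, every impaired library lay below every library of both other groups, where 2.97% of the reference set did so. The choice of the 12 favors this. Their naive medians ran from 3.04 to 278 CPM, and their impaired median was 0.186 to 0.512 of the lower of the other medians. No impaired library exceeded 52.7% of the naive median in any of the 12, where the choice allowed at most 0.6 of it. Their non-impaired medians lay between 0.523 and 1.19 of naive.

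Of the 8 members with an impaired median at or under 0.3 of both groups, 3 were among these 12. In 2 of the 8 every impaired library lay below all others, where 2.97% of the reference set did so. In 6 the impaired libraries overlapped another group. A spread of at least 5-fold within a group was found in 6 of the 8, including 1 of the 2 without overlap. The member with the lowest ratio of all, 0.0235 of non-impaired, had 4.999, 0, 2.32, 0.0673 and 0 CPM in impaired 1 to 5, but also 0 CPM in non-impaired 2 and 4 and 0.0653 CPM in naive 2. The next member, at 0.0356 of non-impaired, stood at either of 2 levels. It had 102, 88.7, 113 and 93.4 CPM in naive 1 to 4, then 87.2, 4.29, 148, 90.2 and 3.38 CPM in non-impaired 1 to 5, and 87.7, 3.11, 2.88, 2.49 and 174 CPM in impaired 1 to 5. Its low level was found in 3 impaired and 2 non-impaired corneas and in no naive cornea, with nothing between 4.29 and 87.2 CPM. Its group means, 99.4 ± 10.9, 66.6 ± 62.1 and 54.0 ± 76.4 CPM (SD, n = 4, 5 and 5), lay within 1 SD of each other between the exposed groups.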

How the data were processed

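The deposited values are raw counts per gene, 1 file for each of the 14 libraries, with 23669 Ensembl rabbit IDs in the same order. Total RNA from whole corneas went into TruSeq libraries, per the labels' protocols. The build OryCun2.0 and the tools Cufflinks 2.0.2, TopHat2 2.1.0, bcl2fastq 2.17 and DESeq stand in the submitters' processing notes, without their roles. How reads were counted, with which strand setting and annotation, is not given in the sources used here, so counts of overlapping or near-identical genes are uncertain.

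The RefSeq table of 38822 genes used here (mOryCun1.1) holds 0 Ensembl IDs, so 0 of the IDs could be matched to a symbol. Gene lists, marker checks, sequences and coordinates were therefore not used here. Members and tests were chosen with earlier results of these data known.

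CPM is the count scaled to a library total of 1000000, without further scaling. Groups follow the clinical status in the labels. Replicate numbers were given here in accession order and are only names. No pair of libraries was near-identical (lowest chi-square per degree of freedom 14.1). All genes were fitted with edgeR 4.0.16 in R 4.3.3 (default filter, TMM, robust quasi-likelihood, all 3 groups in 1 fit). The fit was tested on simulated data. By the naming rule, members given by ID had at least 10 CPM in naive corneas. The first 2 had the lowest impaired ratio among those without overlap between impaired libraries and either other group. The other 2 had the highest non-impaired to naive ratio among those with every non-impaired library above every naive library. The single members without ID and the likeness groups were chosen after their values were seen. Alternatives were other scalings, group means, other limits of the rule, other filters, DESeq2 1.42.0, limma 3.58.1 with voom, fits on 2 groups, and each library left out; fits without both impaired 1 and naive 4 were added after the data were seen.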

Additional observations from a re-analysis of the deposited data

Results flagged for a closer look

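Single libraries far from the rest of their group were looked for in 10 series of values by library, each in 3 groups, and 3 of these 30 groups held one; chance alone flags about 1 in 20 groups. ENSOCUG00000010827 stood at 165 CPM in impaired 1, with a gap to the next impaired library of 80.6% of the range of the group. ENSOCUG00000007833 stood at 26.0 CPM in impaired 1, with a gap of 78.9% of the range. The most abundant member stood at 6416 CPM in non-impaired 1, with a gap of 72.7% of the range of that group.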

How the results depend on the processing

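The rule gave 341 genes as set, 184 with group means in place of medians (162 of them among the 341), 116 with a limit of 0.5 and 697 with a limit of 0.7 in place of 0.6. Leaving out 1 library at a time gave 202 to 415 genes, with the lowest counts without impaired 2 (202) and impaired 4 (209). CPM on TMM-scaled library sizes gave 282 genes, 271 of them among the 341, and without impaired 1 and naive 4 there were 442, 312 of them among the 341. Counts of members called lower stayed within 1.5 times under every alternative run: 147 to 270 of 341 against naive and 187 to 266 against non-impaired corneas when 1 library was left out. Members called between non-impaired and naive corneas, 8 as set, were 18 in a fit on only these groups, 3 to 15 with 1 library left out, and 24 without impaired 1 and naive 4. The median log2 ratio of the members was -1.10 for impaired to naive (-1.21 to -0.90 with 1 library left out) and -0.99 for impaired to non-impaired (-1.06 to -0.83). For non-impaired to naive it was -0.09 (-0.170 to -0.0244), and -0.17 without impaired 1 and naive 4. The causes of these shifts were not tested. None of these median ratios changed direction under the alternatives run, which the rule largely set for the impaired ratios. The median fitted log2 fold change of the members between non-impaired and naive corneas did change sign. It was 0.012 as set, 0.077 without naive 2 and -0.105 without naive 4. No paired analysis was possible because the replicate numbers are only names given here in accession order, and the labels pair no samples. Counting error limits the members of lowest level, 13 of which had an impaired median under 1 CPM.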

Other observations

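Naive 4 differed from naive 1 to 3 along the contrast between the exposed groups, also beyond the members. Over the 8286 genes of the reference set, the log2 ratio of naive 4 to the median of naive 1 to 3 and the log2 ratio of the impaired to the non-impaired median, both from CPM + 1, had a Spearman correlation of 0.587 and a Pearson correlation of 0.545. No library entered both ratios. The points are genes of the same libraries and are not independent, so no p is given. The same ratio for naive 1, 2 and 3, each against the other naive libraries, had Spearman correlations of -0.348, -0.413 and 0.178. Naive 4 is part of each of these references, so these values are not independent of it.

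In the direction opposite to the members, 302 genes of the reference set had naive and non-impaired medians at or under 0.6 of the impaired median. A further 19 genes met every condition of the rule except that their non-impaired median was at or under 0.5 of naive.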
